A study of Mus musculus with 6 samples.

Results

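The genes examined here are those of antigen presentation by major histocompatibility complex (MHC) class II in the mouse: the classical chain genes H2-Aa, H2-Ab1 and H2-Eb1, the invariant chain gene Cd74, the transactivator gene Ciita, and the genes of the peptide-loading proteins H2-DM (H2-DMa, H2-DMb1, H2-DMb2) and H2-DO (H2-Oa, H2-Ob). Their accessible regions were those with a peak summit inside one of the 10 gene bodies or within 3 kb of an annotated start. The rule found 39 regions among the 62876 regions of all libraries. The data came from ATAC-seq, an assay in which the Tn5 enzyme cuts accessible DNA and tags it for sequencing, on white blood cells of mouse peripheral blood after lysis of the red cells. The 3 HADA libraries came from mice in high-altitude de-acclimatization, which per the study's methods had been kept in a hypobaric chamber and then returned to normal oxygen, and the 3 control libraries came from mice kept in normal oxygen. The study's methods describe male C57BL/6j mice in both groups, the day of recovery at which these cells were taken is not given in the sources used here, and the cells were not sorted by type. The labels name separate samples but no batch, litter or animal number, so p-values measure the spread between these libraries.

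MHC class II molecules are pairs of an alpha and a beta chain that display peptides from the endosomes of B cells, dendritic cells and macrophages to CD4 T cells. The chains are made with the invariant chain, which blocks their groove until H2-DM exchanges its last fragment for a peptide, and H2-DO holds H2-DM in check, mainly in B cells. The class II promoters carry conserved X and Y boxes bound by the RFX, CREB and NF-Y factors, and CIITA, which does not bind DNA itself, docks on that assembly. Ciita is transcribed from separate promoters known as pI in dendritic cells and macrophages, pIII in B cells and plasmacytoid dendritic cells, and pIV in cells that respond to interferon gamma.

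The control libraries held 41475, 41214 and 34045 peaks and the HADA libraries 44401, 44044 and 45799, with a genome-wide background of 1.69 to 2.05 and 1.99 to 2.34 in the same unit as the heights before scaling. Control 3 had the fewest peaks and stood apart from the other control libraries at many of the regions described here, so the limma test was repeated without it. Heights below are relative heights: the number of sequenced reads or fragments that cover the summit, divided by the median of that number over the 23970 regions with a peak in all 6 libraries, so that 1 is the height of the median shared region. That median was 58, 55 and 49 for control and 92, 77 and 81 for HADA.

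At the 1 region nearest to the main start of each of the 10 genes (for Ciita its promoter pIII), every HADA library was higher than every control library that had a peak there, and the mean was 1.36 to 2.53 times the control mean. Each of these regions had a peak in all 3 HADA and at least 2 control libraries, and among all protein-coding genes with such a region within 3 kb of the main start 36.9% had this order. The H2-Eb1 region is wide, and its tallest summit was not at the same place in all libraries. Regions at other annotated starts did not all follow, and one 4 bases from a start of a non-coding H2-DMa transcript overlapped between groups. Over all 39 regions, 17 had a peak in all 6 libraries, a share to be read against 38.1% of all regions. Of these 17 shared regions, 11 were higher in HADA in the limma test (adjusted p from 0.0107 to 0.0257, log2 difference 0.62 to 1.77, SE 0.15 to 0.49), where 17.9% of all shared regions were called higher. None was called lower, against 24.1% of all shared regions, and none had a negative difference with an unadjusted p under 0.05. HADA was higher than control without overlap at 15 of the 17, against 29.3% of all shared regions, and lower without overlap at none, against 31.2%. The median log2 difference was 0.98 over the 17 and −0.04 over all shared regions, and without control 3 it was 0.77 over the 17 and 0.04 over all regions fitted. With pileups divided by the genome-wide background of the library in place of the median shared region, 15 of the 17 were called higher, 31.0% of all shared regions were called higher and 18.3% lower, and the median over all shared regions moved to 0.34. By the rank of the fold over the local background, 1 of the 17 was called higher and none lower, against 6.57% and 4.78% of all shared regions.

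**Figure D1:**
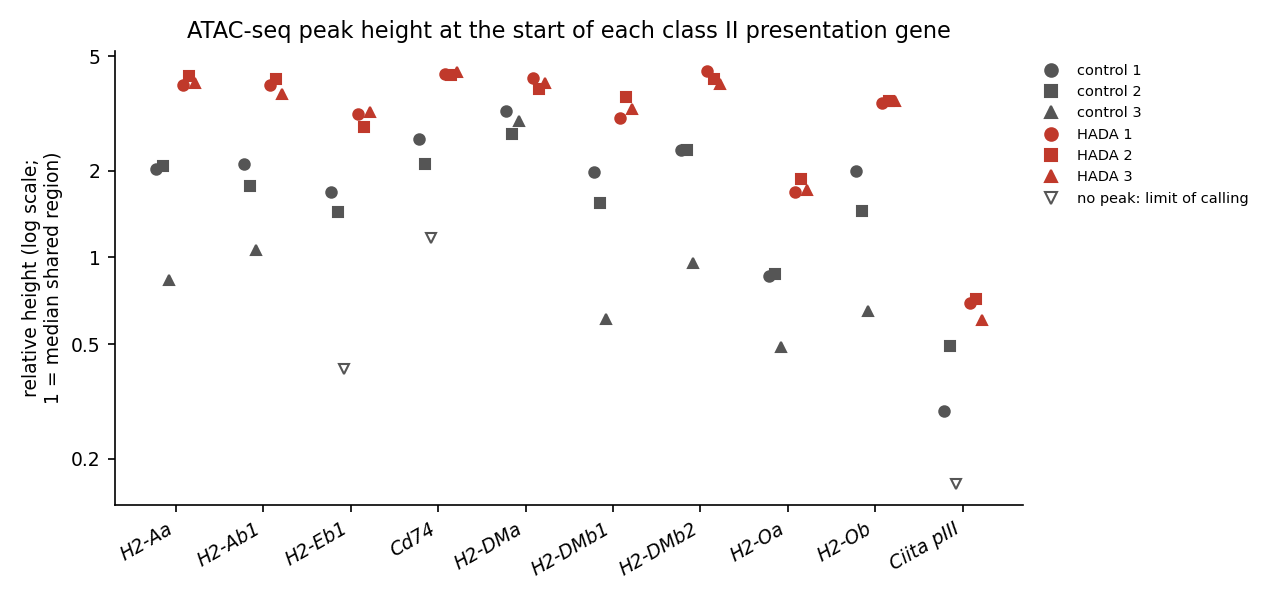
Relative height (log axis, 1 is the median shared region) of the peak nearest to the main start of each gene, with 1 point per library, control in grey and HADA in red; open triangles mark the approximate height a peak needed to be called where a library had none. The triangle at Ciita is a minimum, taken at the genome-wide background. In all 10 genes the HADA points lie above the control points, and control 3 is the lowest or has no peak in 9.

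The module that CIITA works through was printed for 5 genes because these are the members whose start window, 250 bases before to 50 after the main start, held its letters: an X core GNNAC, then 26 to 30 bases of spacer, then the Y box ATTGG, on either strand. The capitals mark the X core and the Y box, each run is written 5′ to 3′ along the gene, and the sequences are from the GRCm39 genome.
H2-Aa, chr17:34506835-34506884, minus strand: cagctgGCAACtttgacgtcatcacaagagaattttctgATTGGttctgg
H2-Ab1, chr17:34482118-34482166, plus strand: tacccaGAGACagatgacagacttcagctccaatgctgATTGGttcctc
H2-Eb1, chr17:34524744-34524792, plus strand: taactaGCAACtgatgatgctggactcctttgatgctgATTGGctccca
H2-DMa, chr17:34354482-34354531, plus strand: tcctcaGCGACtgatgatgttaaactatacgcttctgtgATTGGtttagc
H2-Oa, chr17:34311271-34311320, plus strand: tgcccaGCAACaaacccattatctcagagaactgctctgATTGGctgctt

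The module began 81, 59, 63, 72 and 37 bases upstream of the start in H2-Aa, H2-Ab1, H2-Eb1, H2-DMa and H2-Oa, with spacers of 27 or 28 bases. The same letters stood in 1999 of 67388 windows at starts of protein-coding genes, or 2.97%. They were not found in the windows of Cd74, H2-DMb1, either start of H2-DMb2, H2-Ob or the Ciita promoters, which says only that these letters are not there. The peak summits lay close to the module at H2-Aa (10.5 to 50.5 bases from its centre over the 6 libraries), H2-DMa (11.5 to 69.5) and H2-Ab1 (58.0 to 133 bases). At H2-Oa they lay 179 to 273 bases away. At H2-Eb1 they lay 52.0 and 99.0 bases away in 2 HADA libraries and 838 to 926 bases away in the other libraries with a peak.

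H2-Aa encodes the alpha chain of the classical molecule I-A. Its start region, chr17:34504508-34507369 with a summit 34 bases upstream of the start, had relative heights of 2.03, 2.07 and 0.837 in control and 3.98, 4.27 and 4.02 in HADA. Control 3 was the lowest, and the groups did not overlap. The log2 difference was 1.43 ± 0.34 (SE, n = 3 each, limma adjusted p = 0.0165), and 0.94 ± 0.14 without control 3 (limma adjusted p = 0.00692). The summit also lies in an intron of long H2-Eb1 transcripts and is counted once among the 39. The other H2-Aa region, in an intron, was weak (0.367 to 0.961) and lacked a peak in HADA 3.

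H2-Ab1 encodes the beta chain of I-A. Its start region, chr17:34481675-34483217, rose from 2.10, 1.76 and 1.06 in control to 3.96, 4.17 and 3.69 in HADA, a log2 difference of 1.32 ± 0.26 (SE, n = 3 each, limma adjusted p = 0.0112). A region over a coding exon 1740 bases into the gene, chr17:34483533-34484409, had 1.5, 1.09 and 0.959 in control and 2.33, 2.36 and 2.19 in HADA, and the log2 difference was 0.98 ± 0.20 (limma adjusted p = 0.0121). Both regions had every HADA library above every control library. The region 5427 bases upstream, at the start of a longer non-coding H2-Ab1 transcript, had 2.45, 2.31 and 1.16 in control and 3.50, 3.39 and 3.07 in HADA. It was also without overlap, but its difference of 0.82 ± 0.29 missed the threshold (limma adjusted p = 0.0514). It was called with a variance trend (limma adjusted p = 0.0328), with pileups over the library background (limma adjusted p = 0.000432) and with a replicate block (limma adjusted p = 0.0389), but not without control 3 (0.43, limma adjusted p = 0.0608). A region 1498 bases upstream had 2.86 and 2.25 in the first 2 control libraries, no peak in control 3, and 3.79, 4.49 and 4.27 in HADA. A peak of 1.04 downstream of the gene was called in HADA 3 alone.

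H2-Eb1 encodes the beta chain of I-E. C57BL/6 mice are known for a defective promoter of the partner gene H2-Ea and make no surface I-E, and H2-Ea had no peak in any library. H2-Eb1 nevertheless had 8 regions, the joint largest number with Ciita, and 4 of them were shared and called higher in HADA, counting the one at the H2-Aa start. The others of the 4 lie in introns of the long transcripts. At chr17:34519812-34520490, 4575 bases upstream of the main start, heights were 1.79, 1.73 and 0.531 in control libraries and 3.75, 3.87 and 3.72 in HADA libraries (log2 difference 1.68 ± 0.44, SE, n = 3 each, limma adjusted p = 0.0206). At chr17:34514844-34515513, 9550 bases upstream, they were 2.22, 2.33 and 1.27 in control libraries and 3.52, 3.81 and 3.69 in HADA libraries (0.97 ± 0.25, limma adjusted p = 0.0202). Control 3 was the lowest at both, and without it the differences were 1.05 ± 0.14 (limma adjusted p = 0.00594) and 0.64 ± 0.14 (limma adjusted p = 0.0154). The region 12141 bases upstream, chr17:34512167-34513169, differed in that control 3 was the highest control library: heights were 2.57, 2.76 and 2.86 in control libraries and 4.18, 4.26 and 4.16 in HADA libraries. Its log2 difference was 0.62 ± 0.15 (limma adjusted p = 0.0174, and 0.0564 with a replicate block), and control and HADA libraries were each close to one another.

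The start region of H2-Eb1, chr17:34523423-34526010, had 1.69 and 1.44 in control 1 and control 2 and 3.15, 2.84 and 3.20 in HADA. Control 3 had no peak there, where a height of about 0.408 would have been called. The tallest summit in this wide region lay 838 and 926 bases from the module in control 1 and control 2 and 855 bases in HADA 3. In HADA 1 and HADA 2 it lay 99.0 and 52.0 bases away, so the heights are not all of the same site. Regions 6351 bases upstream and 7704 bases downstream of the start also lacked a peak in control 3. The first had 1.16 and 0.818 in the other control libraries and 2.04, 1.77 and 2.12 in HADA, and the second 0.914 and 0.491 against 0.989, 1.12 and 1.12. A weak intron region of H2-Eb1 (0.564 and 0.449 in control 2 and control 3) was the only one of the 39 with a peak in some control libraries and in no HADA library.

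Cd74 encodes the invariant chain, the chaperone of newly made class II chains. Its start region, chr18:60936309-60937092 with a summit 19 bases upstream of the start, had 2.59 and 2.11 in control 1 and control 2 and 4.32, 4.30 and 4.40 in HADA. Control 3 had no peak there, although about 1.16 would have been enough. The region at the end of the gene, chr18:60944436-60947721, went the same way, with 1.41 and 1.18 in these control libraries and 2.46, 2.64 and 2.72 in HADA. The 2 shared regions of Cd74 lie in introns and were not called in relative height. At chr18:60937594-60939381 control 3 was the highest control library (2.53, 2.56 and 3.29) and came close to HADA (3.54, 3.45 and 3.36), with a log2 difference of 0.32 ± 0.17 (SE, n = 3 each, limma adjusted p = 0.172). With pileups over the library background it was called, at 0.69 (limma adjusted p = 0.044). At chr18:60940074-60940846 the groups overlapped, with 3.91, 2.78 and 4.71 in control and 4.11, 3.49 and 3.83 in HADA (0.03 ± 0.22, 95% interval −0.48 to 0.55, limma adjusted p = 0.917, and 0.15 without control 3, limma adjusted p = 0.566).

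H2-DMa and the paired genes H2-DMb1 and H2-DMb2 encode the alpha and beta chains of H2-DM, the peptide exchange factor. All beta chain regions rose. H2-DMb2 has 2 annotated starts: at the first, chr17:34361653-34362732, heights were 2.36, 2.36 and 0.959 in control libraries and 4.42, 4.16 and 3.99 in HADA libraries (log2 difference 1.26 ± 0.34, SE, n = 3 each, limma adjusted p = 0.0237, and 0.77 ± 0.14 without control 3). At the second, chr17:34363345-34364824, they were 2.31, 2.22 and 0.571 in control libraries and 4.88, 4.94 and 4.78 in HADA libraries, the largest difference of the 17 shared regions (1.77 ± 0.49, limma adjusted p = 0.0254). That size rested on control 3: without it the difference was 1.05 ± 0.14 (limma adjusted p = 0.00594). It was then still the largest, but level with that of the H2-Eb1 region 4575 bases upstream. H2-DMb1, at chr17:34371349-34372602, had 1.98, 1.55 and 0.612 in control and 3.04, 3.61 and 3.27 in HADA (1.42 ± 0.40, limma adjusted p = 0.0257, and 0.86 ± 0.18 without control 3). The 50 bases around each summit of all 39 regions occur once in the genome, so reads at the summits of these related genes could be placed.

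The alpha chain gene was less changed. The start of the coding H2-DMa transcripts, chr17:34354292-34355716, had 3.22, 2.67 and 2.98 in control and 4.21, 3.84 and 4.04 in HADA. The groups did not overlap and control 3 was not the lowest, but the difference of 0.45 ± 0.16 missed the threshold (SE, n = 3 each, limma adjusted p = 0.0554). It was called with a variance trend in the fit (limma adjusted p = 0.0273) and with pileups over the library background (limma adjusted p = 0.0157). The tallest region of the whole set, chr17:34337832-34340425, lies 16049 bases upstream, beside the start of a long non-coding H2-DMa transcript and 134 bases from a start of Brd2, which encodes a bromodomain protein outside the class II pathway. It had 6.17, 5.38 and 8.80 in control and 6.38, 6.23 and 5.60 in HADA, and it was the only shared region with a negative difference (−0.13 ± 0.22, limma adjusted p = 0.649, but 0.25 with pileups over the library background, limma adjusted p = 0.496, and 0.02 without control 3, limma adjusted p = 0.924). Another region, 77 bases from a Brd2 start, had 2.93 and 3.24 in control 1 and control 2, no peak in control 3, and 3.79, 3.48 and 3.30 in HADA. The other 2 regions, in introns upstream, had a peak in control 1 (0.345 and 0.50) and in every HADA library (0.554 to 0.753).

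H2-Oa and H2-Ob encode the chains of H2-DO, which restrains H2-DM and is made in few cell types other than B cells and thymic epithelium. The H2-Oa start region, chr17:34311207-34312263, had 0.862, 0.873 and 0.490 in control and 1.68, 1.87 and 1.72 in HADA. This was the smallest adjusted p of the 17 (log2 difference 1.29 ± 0.25, SE, n = 3 each, limma adjusted p = 0.0107). At the H2-Ob start, chr17:34457468-34459343, heights were 2.00, 1.45 and 0.653 in control libraries and 3.42, 3.48 and 3.48 in HADA libraries (1.48 ± 0.37, limma adjusted p = 0.0186, and 0.97 ± 0.18 without control 3). Both start regions were without overlap between groups. The H2-Ob region 11103 bases into the gene was weak, with 0.603, 0.709 and 0.408 in control and 0.717, 0.714 and 0.864 in HADA, and its difference of 0.45 ± 0.23 was not called (limma adjusted p = 0.153). With pileups over the library background it was called, at 0.83 (limma adjusted p = 0.0159), and without control 3 it was 0.17 and not called (limma adjusted p = 0.441). Each gene also had a weak region called in some libraries: in H2-Ob 0.328 and 0.265 in control 1 and control 3 and 0.370 to 0.478 in HADA, and in H2-Oa 0.655 and 0.878 in control 1 and control 3 and 0.609 in HADA 1.

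**Figure D2:**
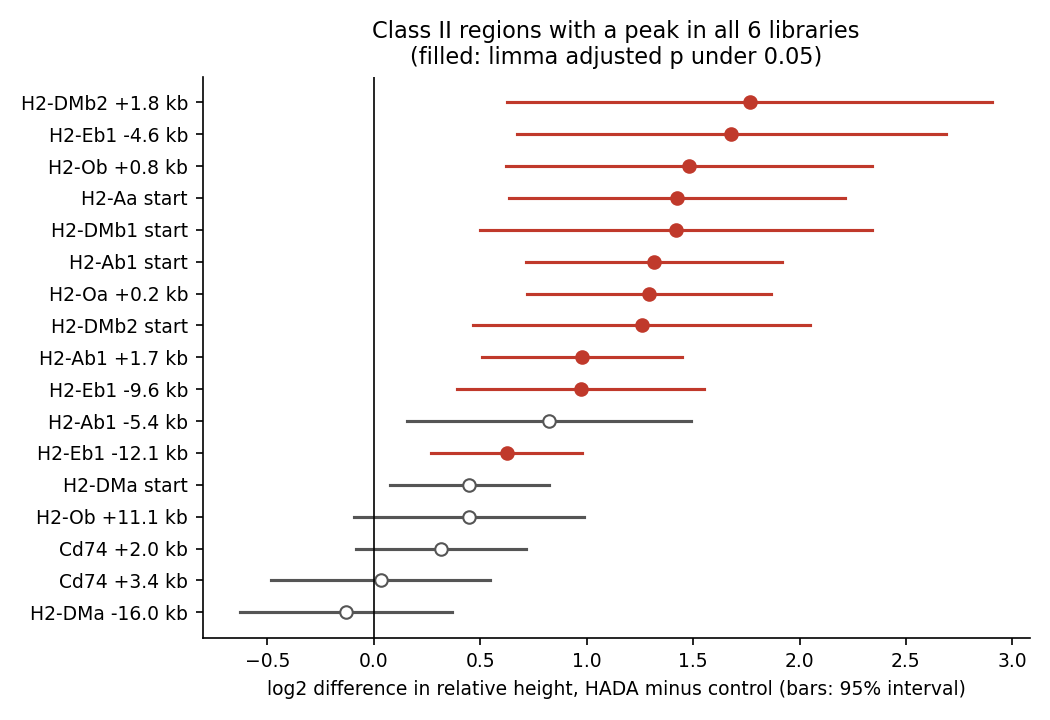
Log2 difference in relative height, HADA minus control, of the 17 class II regions with a peak in all 6 libraries, labelled by gene and distance from the main start; bars are 95% intervals from limma and filled points have an adjusted p under 0.05. The called regions run from 0.62 to 1.77, or from 0.61 to 1.05 without control 3. The lowest are the Cd74 introns (0.32 and 0.03, or 0.69 and 0.41 with pileups over the library background, the first then called) and the region beside Brd2 (−0.13, or 0.25 on that scale).

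Called regions lay at starts and elsewhere. Of the 10 shared class II regions within 1 kb of an annotated start of a protein-coding gene 7 were called higher, against 19.6% of all shared regions so placed, and of the 7 farther away 4 were, against 16.5%. The HADA libraries were close to one another at these genes: the highest minus the lowest HADA height was 8.99% of the mean at the median shared class II region, against 19.9% over all shared regions. In control the same range was 54.8% of the mean, against 42.8% over all shared regions. Control 3 was the lowest library at 12 of the 17 shared regions and the highest at 2.

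Without control 3 the differences were smaller at 14 of the 17 shared regions, and the 11 regions called with it were all called again. The difference moved by over 1.5 times at 7 of these 11, as given above. Of the 39 regions, 10 had a peak in every library except control 3. This pattern held for 5.47% of all regions, and of all regions called in the other 5 libraries 12.5% lacked a peak in control 3. At all 10, control 1 and control 2 were both below every HADA library, the closest by a factor of 1.02, an order that 63.4% of all regions absent from control 3 alone also had. Among the 17 shared regions control 1 and control 2 were below every HADA library at 15, against 34.4% of all shared regions. When the fit was extended to regions with a peak in at least 2 libraries of each group, with an absent library left out, 19 of 29 class II regions were called higher, against 18.7% of all regions so fitted. In that fit the log2 difference was 0.89 ± 0.20 at the Cd74 start (limma adjusted p = 0.015), 0.97 ± 0.20 at the H2-Eb1 start (limma adjusted p = 0.013) and 0.72 ± 0.21 at the upstream H2-Ab1 region (limma adjusted p = 0.033), each with control 3 left out. The H2-Eb1 value compares summits at different places in the region, as given above. With control 3 left out of every region, 19 of 27 class II regions were called higher, against 17.6% of all, and the median log2 difference over the 27 was 0.79. Without HADA 1, HADA 2 or HADA 3 in turn, 5, 2 and 4 class II regions were called, against 7.58%, 2.99% and 6.86% of all, and the median log2 difference was 0.97 to 1.02.

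Peak numbers moved less than heights. The control libraries had 35, 32 and 23 peaks at class II genes and the HADA libraries 37, 37 and 36. The means were 30.0 ± 6.25 and 36.7 ± 0.577 (SD, n = 3 each), and the two-sided exact permutation test gave p = 0.1, the smallest that 3 against 3 libraries allow. The difference of 6.67 peaks fell to 3.17 without control 3, and with the same number of strongest peaks taken from each library it was 5.67 (exact permutation p = 0.4). Per 10000 peaks of a library the numbers overlapped between groups, with 8.44, 7.76 and 6.76 in control and 8.33, 8.40 and 7.86 in HADA. All 3 HADA libraries had a peak at 32 of the 39 regions, against 57.8% of all regions, and all 3 control libraries at 18, against 45.2%. One region, in Ciita, had a peak in all HADA and no control libraries, against 7.01% of all regions, and none had the reverse, against 1.88%.

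Ciita, the master regulator of the class II genes, had 8 regions. None of them was called in all 6 libraries, and control 3 had no Ciita peak at all. At its genome-wide background a height of about 0.163 would have been called. This is a minimum, because no peak nearby gave a local background for control 3. All 8 regions had more HADA than control libraries with a peak, as did 35.5% of all regions. Of the annotated starts, those of pI lie at chr16:10297923-10298028, those of pIII at chr16:10306042-10306143, 8119 bases downstream, and those of pIV at chr16:10307516-10307647, 9593 bases downstream of pI. They were assigned to the names by their order along the gene.

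The promoters differed in whether they had a peak. At pI no library had one. At pIII, region chr16:10305490-10306606, heights were 0.293 and 0.491 in control 1 and control 2 and 0.696, 0.714 and 0.605 in HADA. At pIV, region chr16:10307314-10307915, peaks of 0.272 and 0.260 were called in HADA 1 and HADA 2 alone, little above the heights of 0.172, 0.20 and 0.163 that would have been called in control 1, 2 and 3 and of 0.198 in HADA 3. The log2 difference at pIII was 0.82 ± 0.27 with control 3 left out of the fit (SE, limma adjusted p = 0.0437), and pIV had no test because no control library had a value.

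The sequences of pIII and pIV are shown because only these 2 promoters had peaks, on the plus strand of GRCm39. In pIV the capitals mark a gamma-activated sequence (TTCNNNGAA) followed by an E box (CACGTG, the USF motif), 164 and 153 bases upstream of the last start. The windows of pIII and pI held neither motif, so pIII has no capitals.
Ciita pIII, chr16:10305893-10306192, plus strand: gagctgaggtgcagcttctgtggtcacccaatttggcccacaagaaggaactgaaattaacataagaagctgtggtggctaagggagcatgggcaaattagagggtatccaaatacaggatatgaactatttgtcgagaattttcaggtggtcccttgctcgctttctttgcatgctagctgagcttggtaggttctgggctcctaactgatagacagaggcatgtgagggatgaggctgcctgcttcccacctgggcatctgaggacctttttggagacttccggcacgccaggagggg
Ciita pIV, chr16:10307397-10307696, plus strand: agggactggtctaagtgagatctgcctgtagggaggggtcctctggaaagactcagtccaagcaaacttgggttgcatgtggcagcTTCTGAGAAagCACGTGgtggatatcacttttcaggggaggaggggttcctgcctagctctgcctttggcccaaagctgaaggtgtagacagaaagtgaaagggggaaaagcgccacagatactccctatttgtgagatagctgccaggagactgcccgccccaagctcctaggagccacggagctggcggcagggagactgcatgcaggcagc

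Among windows of the same length at starts of protein-coding genes, 7.96% held the gamma-activated sequence and 7.59% the E box, both of which read the same on either strand as searched.

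Within the gene body, the tallest Ciita region was an intron at chr16:10333632-10334552, with 1.05 and 0.855 in control 1 and control 2 and 1.85, 1.91 and 2.12 in HADA. Its log2 difference with control 3 left out was 1.05 ± 0.21 (SE, limma adjusted p = 0.0117). An intron region at chr16:10326452-10327333 had 0.207 and 0.218 in these controls and 0.489, 0.519 and 0.519 in HADA (1.26 ± 0.19, limma adjusted p = 0.00863). The region called in HADA alone, chr16:10313649-10314293, had 0.576, 0.597 and 0.469, against heights of about 0.155, 0.145 and 0.163 that would have been called in the control libraries. For control 2 and control 3 these heights are minima, taken at the genome-wide background. An intron region nearby was called in control 1 (0.362) and in all HADA libraries (0.663, 0.623 and 0.543). The last 2 regions were called in 1 or 2 HADA libraries at heights of 0.217 to 0.429.

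**Figure D3:**
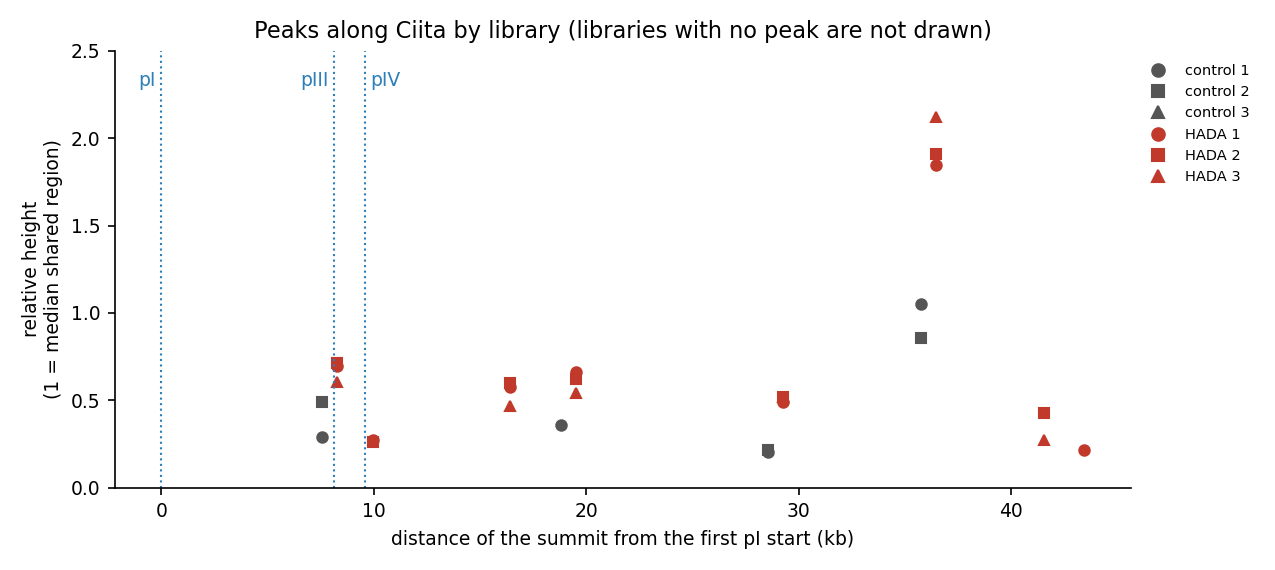
Relative height (1 is the median shared region) of each called peak along Ciita by the distance of the region's summit from the first pI start in kb, control in grey and HADA in red, drawn slightly to the left and right of the position; dotted lines mark the first starts of pI, pIII and pIV. No point lies at pI, control 3 has no point, and the tallest region reaches 2.12 in HADA.

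The local background at these peaks was also higher in HADA. MACS2, the peak caller, compares each summit with this background, which by its usual method is counted from the same reads in windows that take in the peak and its neighbours, so it is no measure apart from the peaks. The local background, divided by the genome-wide background of the library, was higher in every HADA library than in every control library at 17 of the 17 shared regions, against 45.7% of all shared regions. The median ratio of HADA to control was 2.56 over the 17 and 1.20 over all shared regions. At the H2-Ab1 start the local background was 14.3 ± 7.73 times the library's background in control and 42.2 ± 2.89 times in HADA (SD, n = 3 each). At the taller Cd74 intron, whose relative height was not called, it was 27.0 ± 9.40 and 64.5 ± 1.87 times. Ranked within each library by its fold over the local background, the H2-Ab1 start stood low, at the 1.31, 2.39 and 5.07 percentile of shared regions in control and the 4.22, 3.05 and 1.93 percentile in HADA. By that rank only the H2-Oa start was called higher in HADA, and 9 of the 16 positive differences turned negative. None of these was called lower, and the taller Cd74 intron came closest (limma adjusted p = 0.0543).

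**Figure D4:**
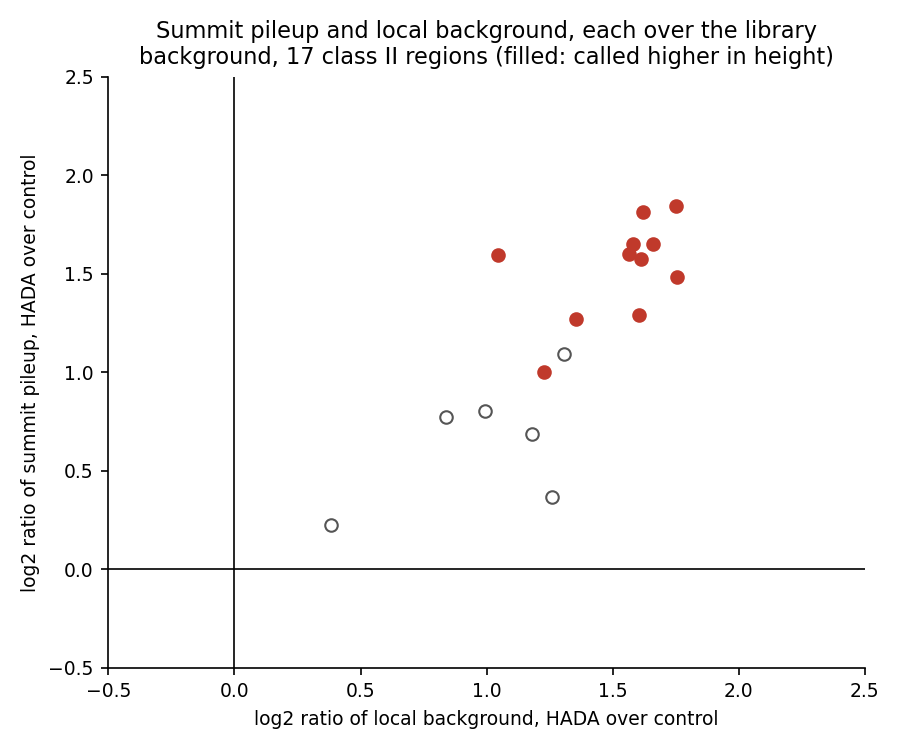
Log2 ratio of summit pileup against log2 ratio of local background, HADA over control and both divided by the library's genome-wide background, for the 17 shared class II regions, with 1 point per region and filled points called higher in relative height by limma. All 17 points lie to the right of 0 in local background and above 0 in pileup.

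Of 25 other genes of the pathway with 100 regions, 44 regions were shared, and 8 were called higher and 6 lower in HADA, where 17.9% of all shared regions were called higher and 24.1% lower. The count of higher regions is near the general share. Among genes whose products drive Ciita, 6 of 11 shared regions were higher and 1 lower, against the same 17.9% and 24.1%, and of their 28 regions 4 were called in HADA alone and 1 in control alone, against 7.01% and 1.88% of all regions. The higher regions were 3 of 3 at Pax5, the B cell identity factor, 2 of 2 at Irf4 and 1 of 2 at Irf8, which encode interferon regulatory factors of lymphoid and myeloid cells. The called Irf8 region was not its promoter, which missed the threshold (0.74 ± 0.26, limma adjusted p = 0.0525). The Pax5 promoter had 0.897, 0.600 and 0.265 in control and 1.90, 2.52 and 1.98 in HADA (log2 difference 2.02 ± 0.41, SE, n = 3 each, limma adjusted p = 0.0115). The Irf4 promoter had 1.00, 1.04 and 0.367 in control and 1.89, 2.06 and 2.05 in HADA (1.46 ± 0.38, limma adjusted p = 0.0205, and 0.92 ± 0.14 without control 3). The promoter of Spi1, which encodes the factor PU.1 of myeloid cells and B cells, went the other way, with 4.24, 4.04 and 7.84 in control and 3.14, 2.36 and 2.21 in HADA (−1.01 ± 0.29, limma adjusted p = 0.0266). Irf1, which encodes an interferon-induced factor that acts at pIV, had a promoter difference of −0.18 ± 0.18 (limma adjusted p = 0.445) and was not called. Prdm1, which encodes the repressor that silences Ciita in plasma cells, had 0 of 3 shared regions called.

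The following lists had few shared regions, and their counts are read against 17.9% of all shared regions called higher and 24.1% lower. Of 9 shared regions at the 7 genes of the X and Y box factors, 1 at Nfyc was higher and 1, the promoter of Rfxap, was lower (−0.61 ± 0.18, limma adjusted p = 0.0321), and the list's median log2 difference was 0.04 (0.08 without control 3). In endosomal processing, 1 of 5 shared regions, at the protease gene Lgmn, was lower and none was higher. Ifi30, which encodes the endosomal thiol reductase, had no shared region, and the tallest of its 3 regions had 1.55 and 1.40 in control 1 and control 2, no peak in control 3, and 2.41, 2.56 and 2.75 in HADA. In the turnover genes Marchf1 and Cd83, 0 of 6 shared regions were called. Of 8 shared regions at genes of costimulation, 3 were lower, 1 at Cd80 and 2 at Cd86, a count near the general share, and the Cd40 promoter, with 0.862, 0.927 and 0.245 in control and 1.45, 1.30 and 1.28 in HADA, missed the threshold (1.21 ± 0.47, limma adjusted p = 0.0696) but was called without control 3 (0.53 ± 0.15, limma adjusted p = 0.031). Of the other class II genes, H2-Eb2 had 1 of 2 shared regions called higher.

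Of the marker lists of blood cell types, that of B cells went the same way as the class II genes and had the largest median difference. The medians of the T cell list and of the 1 shared NK cell region were also positive (0.45 and 0.32, or 0.22 and 0.03 without control 3). Of the B cell markers, 6 of 6 shared regions were called higher, against 17.9% of all shared regions, with a median log2 difference of 1.56 (5 of 6 and 1.10 without control 3), and 12 of 51 regions were called in HADA alone, against 7.01% of all regions. The promoter peak of Ms4a1, which encodes CD20, had 1.60, 1.09 and 0.306 in control and 3.39, 3.29 and 2.90 in HADA (log2 difference 1.97 ± 0.54, SE, n = 3 each, limma adjusted p = 0.0234, and 1.22 ± 0.21 without control 3). The tallest peaks of the 10 B cell markers summed to 8.55, 6.65 and 2.22 in control and 16.1, 16.9 and 16.7 in HADA, and those of the 10 class II genes to 25.8, 22.4 and 21.5 and to 37.7, 39.4 and 37.8. The H2-DMa part of the class II sums is the region beside Brd2, with 6.17, 5.38 and 8.80 in control and 6.38, 6.23 and 5.60 in HADA. In HADA 2 the H2-Aa start region is counted for both H2-Aa and H2-Eb1. All 10 B cell markers had a peak in 5 libraries, and control 3, the lowest library at most class II regions, had none at Cd79a, Cd22, Blk and Cr2.

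Most shared regions at the markers of monocytes, which also make class II molecules, were lower in HADA. Of 8 shared monocyte regions 7 were lower and 0 higher, against 24.1% and 17.9% of all shared regions, with a median log2 difference of −1.12, and the summed heights were 6.81, 6.16 and 7.76 in control libraries and 3.89, 4.12 and 3.64 in HADA libraries. At the promoter of Cd14, the endotoxin coreceptor, heights were 1.83, 1.51 and 2.76 in control libraries and 0.609, 0.481 and 0.481 in HADA libraries (log2 difference −1.92 ± 0.25, SE, n = 3 each, limma adjusted p = 0.00805). Ly6c2 and Ccr2 had no shared region and differed from these. The tallest Ly6c2 region had 0.690 and 0.545 in control 1 and control 2, no peak in control 3, and 1.07, 1.05 and 0.938 in HADA, and Ccr2 had peaks in control 2 alone among the controls and in all 3 HADA libraries. Dendritic cell markers had 3 of 13 shared regions higher, all at Flt3, and 4 lower (3 without control 3), both near the shares of 17.9% and 24.1% over all shared regions, and Siglech had no peak in any library. The summed dendritic heights were 5.53, 5.15 and 7.98 in control libraries and 4.89, 4.78 and 4.62 in HADA libraries. T cell markers had 4 of 14 shared regions higher and 0 lower, against the same 17.9% and 24.1%, with a median log2 difference of 0.45 (3 of 14 and 0.22 without control 3) and summed heights of 10.7, 9.65 and 12.4 in control and 12.1, 12.5 and 12.2 in HADA. Neutrophil markers had 7 of 8 shared regions lower, against 24.1% of all, and control 3 had the highest summed height, at 18.8 against 8.71 and 7.58 in control 1 and control 2 and 2.56 to 4.22 in HADA. The study calls the assayed cells leukocytes in its methods and mononuclear cells in its results. NK cell markers had 1 shared region, which was not called, and summed heights of 0.429 to 1.16 in control and 1.07 to 1.54 in HADA. The part of any of these cell types in the class II differences was not tested. In such a mixture, more cells of a type and more open chromatin per cell cannot be told apart.

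**Figure D5:**
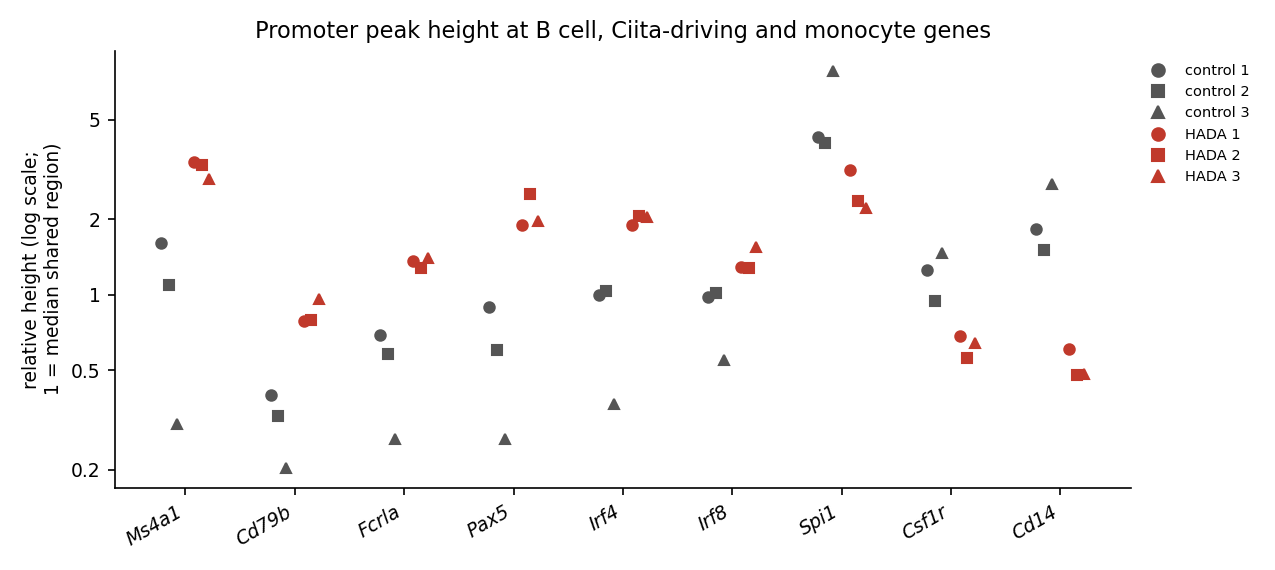
Relative height (log axis, 1 is the median shared region) of the promoter peak, 1 point per library with control in grey and HADA in red, at the B cell markers Ms4a1, Cd79b and Fcrla, the Ciita-driving factors Pax5, Irf4, Irf8 and Spi1, and the monocyte markers Csf1r and Cd14. HADA lies above control at the first 6 genes, with control 3 the lowest, and below control at Spi1, Csf1r and Cd14. The Irf8 promoter difference was not called (limma adjusted p = 0.0525).

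The promoters whose heights followed the class II promoters most closely over the 6 libraries were those of Bfsp2, Myo10, Ddx54, Magi2 and Ptp4a3, with Pearson's r of 0.998 to 1.000 against the median profile of 14 class II regions near starts. The closest, Bfsp2, had 1.14, 1.02 and 0.327 in control and 2.57, 2.60 and 2.52 in HADA. This is a description over 6 libraries that share their group difference, and 18.5% of the 11936 promoter regions compared had r above 0.9.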

How the data were processed

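Per the study's methods, the authors used Trimmomatic for trimming, Bowtie2 for alignment, Picard for removal of duplicates and MACS2 for peaks. The build is GRCm39. Names of the peaks carry 1 library each, so replicates were not pooled. The deposited lists give each peak's fold over local background (a ratio), −log10 p-value and −log10 q-value, and a deposited score. MACS2 options and any Tn5 shift are not given in the sources used here. Read totals were not analysed here, and the background stands for depth.

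The summit pileup and the local background were solved from the deposited fold and −log10 p-value, which were returned for 100% of peaks. Peaks sharing 1 bp were merged into regions. Summits were assigned to GENCODE M39 genes. Log2 pileups were centred on each library's median shared region, and groups were compared over all 23970 shared regions with limma 3.58.1 (R 4.3.3) with Benjamini-Hochberg adjustment at 0.05, tested on simulated data first. Single values were compared by exact permutation (scipy 1.17.1). The height needed for a call was estimated from each library's weakest peak and the highest background among its peaks nearby, within 5 kb. Where a library had no peak nearby, its genome-wide background was used, so that height is a minimum. Sequences were read from the GRCm39 genome.

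The member genes, marker lists and pathway lists were chosen with earlier results of these data known. Regions were named if they had a peak in all 6 libraries or in 1 group alone, and the regions of starts and of Ciita were added. The form of the X and Y module was chosen after the promoter of 1 member had been seen, and the fit with at least 2 libraries of each group after values had been seen. The alternatives were the fold rank, division by the background, a variance trend, a replicate block, stricter peak limits, equal peak numbers, thinning to the lowest background, merging at 200 bp, a 1 kb limit, promoter regions only, single-copy summits and leaving out each library. Some genes of the lists are counted but not reported singly here.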

Additional observations from a re-analysis of the deposited data

How the results depend on the processing

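No class II region was called lower in HADA under any alternative run, and at least 1 was called higher under each. By fold rank, which divides each summit by its local background, 1 region was higher and the median difference reversed to −0.041 (normal scores). The regions that reversed were H2-DMa (−0.34), H2-DMb2 at the first start (−0.35), H2-Ab1 upstream (−0.26) and coding exon (−0.79), H2-Aa (−0.041), H2-Eb1 12141 and 9550 bases upstream (−0.32 and −0.012) and the Cd74 introns (−0.89 and −1.52). The last just missed the threshold for a lower call (limma adjusted p = 0.0543). By fold rank 2 regions were higher and 2 lower at an unadjusted limma p under 0.05. The local background was 2.56 times higher at the median class II region. Pileup over the library background gave a median of 1.36 and turned the H2-DMa region beside Brd2 to 0.25, and promoter regions alone gave 1.28 with 0 HADA-only regions. HADA-only regions numbered 2 with a −log10 q of at least 5, with equal peak numbers (1 control-only) and after thinning, and 4 with a −log10 q of at least 10. With at least 2 libraries of each group, 19 regions were higher.

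Leaving out 1 library gave 2 to 19 regions called higher, 1 to 4 HADA-only and 0 to 1 control-only regions. The count was 19 without control 3, where the region beside Brd2 turned to 0.02 and the median was 0.79. It was 5, 2 and 4 without HADA 1, 2 and 3, where calls over all regions also fell, to 7.58%, 2.99% and 6.86%, while the median stayed at 0.97 to 1.02. The peak difference of 6.67 ran from 3.17 without control 3 to 9.17 without control 1, and it was 5.67 with equal peak numbers (exact permutation p = 0.4), 2 with promoter regions alone (exact permutation p = 1) and 10.3 with a −log10 q of at least 10 (exact permutation p = 0.1).

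The count was 15 with pileup over background and 13 with a variance trend. With a replicate block it was 11, with the H2-Eb1 region 12141 bases upstream lost (limma adjusted p = 0.0564) and the upstream H2-Ab1 region gained (limma adjusted p = 0.0389). Same-numbered libraries correlated at −0.08, 0.08 and −0.38 in their deviations, and libraries with unlike numbers at −0.47 to 0.49. With 3 libraries in each group these values cannot tell whether the numbers pair the libraries. Peaks that fell short of calling, above all in control 3, limit what absence means.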
